A study of Mus musculus with 6 samples.

Results

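Chemokine genes were examined in mouse double negative T (DNT) cells, which are T cells that carry neither CD4 nor CD8 on their surface. The members are 8 genes for secreted chemokines, Ccl1, Ccl3, Ccl4, Ccl5, Ccl9, Ccl22, Cxcl10 and Xcl1, chosen by name and matched by Ensembl identifier among the 26128 genes in the deposited table. All 8 were found in it. The DNT cells had been made in culture from CD4+ T cells of adult C57BL/6 mice, with spleen as the tissue in the labels and both spleen and lymph nodes in the methods of the study. By those methods, CD25- cells were grown with mature dendritic cells of DBA/2 mice and IL-2, and cells that were CD3+ without NK1.1, CD4 or CD8 were then sorted. Both groups were stimulated for 48 h with beads that carry antibodies to CD3 and CD28. The 3 control libraries had no IL-33, and the 3 IL-33 libraries had this cytokine of the IL-1 family at 50 ng/ml. The labels do not say whether replicates were separate mice or separate cultures, so p-values measure only the spread between these libraries, which may be technical.

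Chemokines are small secreted proteins that bind receptors coupled to G proteins on leukocytes and direct the movement of those cells along a gradient. They are grouped by the spacing of the first cysteines of the mature protein, which stand side by side in the CC class and have 1 residue between them in the CXC class, while the XC class lacks 1 cysteine of that pair. Activated effector T cells are a known source of Ccl3, Ccl4, Ccl5 and Xcl1, whereas Ccl22 and Cxcl10 are best known from dendritic cells, macrophages and interferon-treated cells.

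The 4 coding stretches shown here stand for the 3 classes. The CC class has both Ccl3 and Ccl4 because Ccl4 was called lower with IL-33 and its neighbour Ccl3 was not. The stretches are taken from the GENCODE M21 transcripts, 5′ to 3′, with the codons of the first conserved cysteines in capitals. Codons are counted from the start codon, and the stretches cover codons 28 to 43 of Ccl3 and Ccl4, 24 to 40 of Cxcl10 and 26 to 40 of Xcl1.
Ccl3: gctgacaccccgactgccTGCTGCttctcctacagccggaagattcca
Ccl4: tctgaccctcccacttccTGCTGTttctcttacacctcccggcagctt
Cxcl10: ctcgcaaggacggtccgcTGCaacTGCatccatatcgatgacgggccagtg
Xcl1: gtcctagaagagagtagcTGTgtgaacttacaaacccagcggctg
Aligned over 270 bases, the coding sequences of Ccl3 and Ccl4 were 71.1% identical, and the longest stretch that they shared without a difference was 9 bases. By the same alignment, members of different classes ranged from 53.0% (Ccl9 and Xcl1) to 66.5% (Ccl4 and Xcl1). The longest stretch shared by Ccl3 and Xcl1 was 13 bases.

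Library totals ran from 20256342 to 22336050 counts, so that 3 counts, taken as the limit of detection, stood for 0.134 to 0.148 counts per 1000000 (CPM) for counting error alone. The replicates of each group differed by more than sampling noise, with a chi-square of 2.64 to 3.67 per gene between libraries. Genes for CD3 and the T cell receptor were high in all 6 libraries. Cd4 had a mean of 0.934 CPM in control cells and 0.373 CPM with IL-33, whereas Cd8a, whose protein the sort selects against, stood at 545 ± 13.6 and 400 ± 9.15 CPM and Cd8b1 at 9.68 ± 1.65 and 16.3 ± 2.07 CPM (SD, n = 3 in each group). Of 15 dendritic and myeloid cell markers 14 were listed, with a summed level of 94.0 to 94.2 CPM in control libraries and 71.5 to 77.9 CPM with IL-33. Itgax, at 54.6 ± 2.07 and 26.0 ± 1.59 CPM, was the one of 7 tested markers called lower, and without it the sum was higher with IL-33, at 46.7 to 50.2 CPM beside 38.2 to 41.8 CPM in control libraries. Batf3 (log2 fold change 1.28, adjusted p = 4.0e-05 in edgeR) and Itgam (0.88, adjusted p = 1.3e-04) were called higher, the median of the 7 was 0.29, and Flt3, Sirpa and Fcgr1 had at most 3 counts in any library. The sum over 6 listed mast cell and basophil markers was 16.3 to 22 CPM in control libraries and 12.2 to 14.9 CPM with IL-33, with Cpa3 called lower (log2 fold change -0.62, adjusted p = 8.3e-05 in edgeR), and the sum over 3 listed B cell markers was 4.79 to 5.70 and 5.30 to 6.35 CPM. The sum over 4 natural killer cell markers was 405 to 408 CPM in control libraries and 373 to 393 CPM with IL-33, most of it Eomes.

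The members together took a small share of each library. They summed to 3166, 3485 and 3825 counts in the control libraries and to 3218, 2811 and 3062 with IL-33, which is 0.0133% to 0.0175% of a library. Most of these counts were of Ccl5, Ccl4 and Ccl3. Ccl5 held 31.7% to 40.7% of the members' counts in control libraries and 41.4% to 46.0% with IL-33, and Ccl4 held 26.4% to 32.1% and 19.0% to 22%. In control replicate 1 the share of Ccl5 was 40.7% with an exact 95% binomial interval of 39.0% to 42.5%, an interval for counting error only, and the share in the other control libraries was 32.4% and 31.7%.

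Levels can be set side by side between genes only per length, and the scale used for that is CPM per kilobase of all annotated exons of a gene. On this scale the genes of the CC class made by effector T cells stood highest. Ccl4, Ccl5 and Ccl3 were at 75.5 ± 13.8, 59.6 ± 3.18 and 43.8 ± 6.78 CPM per kilobase in control cells and at 43.9 ± 5.30, 64.1 ± 2.28 and 39.3 ± 2.92 with IL-33 (SD, n = 3). Ccl1 and Xcl1 came next, at 6.87 ± 1.01 and 6.63 ± 1.46 CPM per kilobase in control cells and at 5.76 ± 0.614 and 2.07 ± 0.449 with IL-33. Ccl9 and Cxcl10 were at 0.941 and 0.782 CPM per kilobase in control cells and at 1.33 and 0.485 with IL-33, and Ccl22 was at 0.0339 ± 0.0120 and 0.0396 ± 0.0400. In the order of mean level over all libraries, the neighbours Ccl5 and Ccl4, Ccl1 and Xcl1, and Ccl9 and Cxcl10 had overlapping replicates in control cells, and with IL-33 only Ccl4 and Ccl3 did. The levels of Ccl1, Ccl5 and Cxcl10 depend on the length used. With the longest protein-coding transcript they were 26.6 ± 3.90, 108 ± 5.73 and 1.30 ± 0.330 CPM per kilobase in control cells, where Ccl5 then stood above Ccl4 without overlap and Cxcl10 above Ccl9, at 0.953 ± 0.0464.

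A member was taken to be at the detection limit where any library held 3 counts or fewer, and near it where any library held fewer than 20. Ccl22 was at the limit, and Cxcl10 and Xcl1 were near it. Ccl22, a ligand of Ccr4 that draws regulatory and type 2 helper T cells, was counted 1, 2 and 2 times in the control libraries and 4, 0 and 2 times with IL-33. These values overlap and lie within counting error of the limit, and the gene failed the filter on low counts and was not tested. The 0 in IL-33 replicate 2 allows up to 3 counts in that library.

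**Figure D1:**
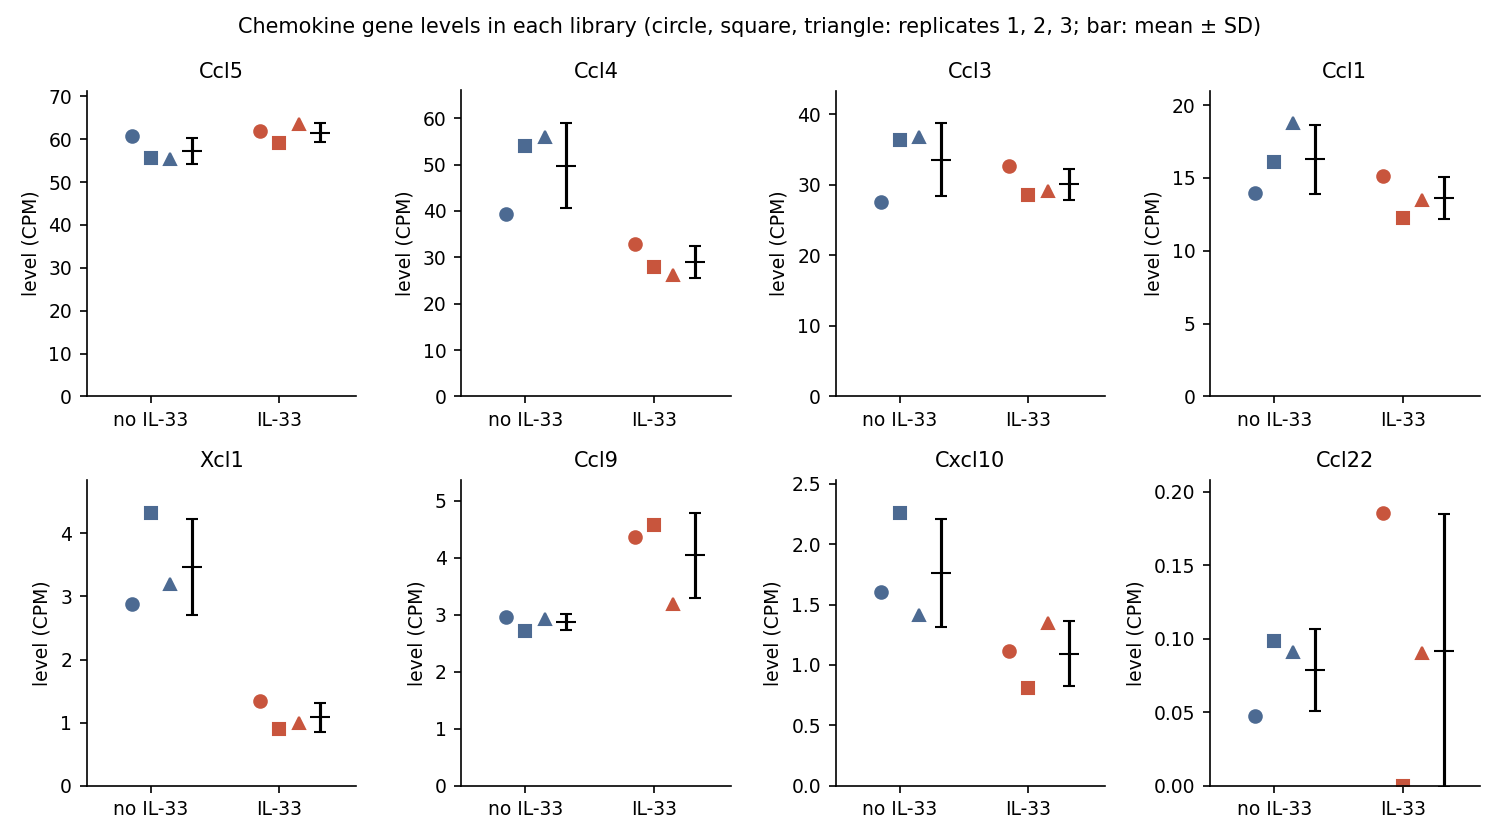
Level of each chemokine gene in CPM in the 3 control (no IL-33) and 3 IL-33 libraries, each panel on its own linear axis from 0, with a black bar for the mean ± SD. The groups do not overlap for Xcl1, Ccl4, Cxcl10 and Ccl9, and Ccl22 stays at or below 4 counts in every library.

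With IL-33, Xcl1 and Ccl4 fell, and no member rose past the thresholds. Of the 7 members tested, 2 passed both an adjusted p of 0.05 and a fold change of 1.5 in either direction, in the quasi-likelihood test of edgeR (p-values adjusted after Benjamini and Hochberg over 14671 genes), where 4.87% of all genes tested did. Among all genes tested 2.39% were called lower and 2.47% higher. The groups did not overlap for 4 of the 7, beside 38.9% of all genes tested. The median log2 fold change of the 7 was -0.26, and that over all genes tested was -0.0006. No member was called higher by edgeR, DESeq2 or limma-voom. In edgeR 6 of the 7 had an unadjusted p under 0.05, of which 2 were higher. The share of all genes at that cutoff was not counted. It can be no lower than the 27.5% that passed by the adjusted p, so no excess can be read from the 6. By the adjusted p alone 2 of the 7 passed, beside 27.5% of all genes tested. In bulk samples such as these, fewer cells that express a gene and less RNA of it per cell cannot be told apart.

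**Figure D2:**
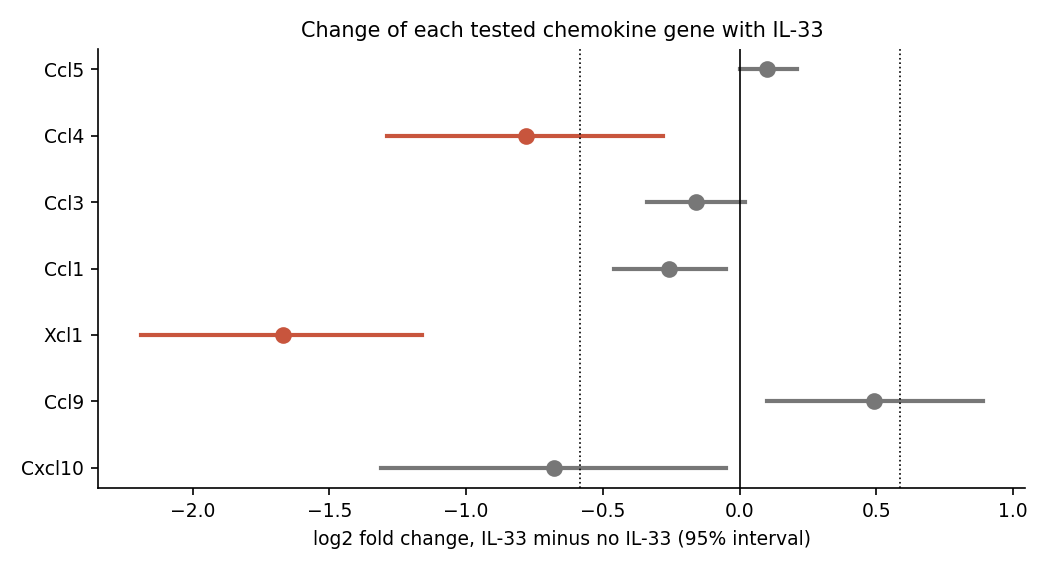
Log2 fold change (IL-33 minus no IL-33) of the 7 tested chemokine genes from edgeR, with 95% intervals as lines and dotted lines at a fold change of 1.5 in each direction. Xcl1 and Ccl4, in red, passed both thresholds, and the intervals of Ccl5, Ccl3 and Ccl1 lie inside the dotted lines.

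Xcl1, the ligand of Xcr1 on cross-presenting dendritic cells, showed the largest change among the members. It was counted 61, 88 and 70 times in the control libraries and 29, 19 and 22 times with IL-33. Every IL-33 library was below every control library. The level was 3.47 ± 0.765 CPM in control cells and 1.08 ± 0.235 CPM with IL-33 (SD, n = 3 in each group), which is 3.19-fold lower, with a log2 fold change of -1.67 (SE 0.26, 95% interval from -2.19 to -1.16, adjusted p = 7.9e-08 in edgeR). Its SD with IL-33 was 21.7% of the mean, close to the 20.7% that counting alone gives at this depth. Under every alternative test, scaling, filter and left-out library its log2 fold change lay between -1.86 and -1.48 with an adjusted p of at most 0.00138. The gene (ENSMUSG00000026573, chromosome 1 from 164931644 to 164935527 on the minus strand, GRCm38) shares exon bases with Gm20743 on the other strand, which had 17, 13 and 25 counts in control libraries and 7, 5 and 6 with IL-33, a log2 fold change of -1.61 (SE 0.49, adjusted p = 0.00802 in edgeR). Whether the authors counted by strand is not given in the sources used here, so reads of these 2 genes cannot be told apart and both values are uncertain.

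The promoter of Xcl1 is shown with that of Cxcl10, the other low member with lower counts in all IL-33 libraries, to set the letters before each start side by side. The bases are those 250 before the start in RefSeq (GRCm38.p6), printed 5′ to 3′ on the strand of the gene, chr1:164935523-164935772 for Xcl1 and chr5:92348890-92349139 for Cxcl10, both on the minus strand. Capitals mark matches to the NF-κB consensus, to the AP-1 motif TGANTCA and to the interferon-stimulated response element (GAAA, any 2 bases, GAAA), searched on both strands.
Xcl1: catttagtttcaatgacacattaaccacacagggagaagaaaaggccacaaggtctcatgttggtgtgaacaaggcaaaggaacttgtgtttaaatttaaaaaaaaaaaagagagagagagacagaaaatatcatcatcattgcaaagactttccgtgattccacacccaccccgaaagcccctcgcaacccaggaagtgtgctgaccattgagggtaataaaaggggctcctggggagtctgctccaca
Cxcl10: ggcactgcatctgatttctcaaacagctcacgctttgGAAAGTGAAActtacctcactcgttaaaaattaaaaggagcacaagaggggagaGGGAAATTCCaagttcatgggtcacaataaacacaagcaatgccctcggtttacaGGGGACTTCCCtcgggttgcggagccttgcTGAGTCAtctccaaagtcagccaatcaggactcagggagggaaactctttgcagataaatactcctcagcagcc
The Cxcl10 window held 3 matches to the NF-κB consensus, of which 2 overlap each other, with 1 AP-1 match and 1 interferon-stimulated response element. The Xcl1 window held none of these 3 and 1 match to the NFAT core GGAAA, of which the Cxcl10 window held 3, with 1 overlapping the response element and 1 an NF-κB match. Over 32851 promoters of the same length, 7.25% held the NF-κB consensus, 6.75% the AP-1 motif, 2.98% the response element and 55.6% the NFAT core. A promoter was found for 6 of the 8 members, without Ccl4 and Ccl5. Of the other windows, that of Ccl1 held 2 overlapping NF-κB matches on opposite strands, that of Ccl9 held 1 NF-κB and 1 AP-1 match, and those of Ccl3 and Ccl22 held neither. These matches describe letters only and do not say whether a factor bound there.

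Cxcl10, an interferon-induced ligand of Cxcr3, was counted 34, 46 and 31 times in the control libraries and 24, 17 and 30 times with IL-33. The groups did not overlap, although the highest IL-33 count was 1 below the lowest control count. The level was 1.76 ± 0.446 CPM in control cells and 1.09 ± 0.270 CPM with IL-33 (SD, n = 3), with a log2 fold change of -0.68 (SE 0.32, 95% interval from -1.31 to -0.05, adjusted p = 0.104 in edgeR), which did not pass the test. The exons of Cxcl10 (ENSMUSG00000034855, chromosome 5 from 92346638 to 92348889) are overlapped on the other strand by Art3, which had 0, 0 and 0 counts in control libraries and 1, 0 and 3 with IL-33.

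Ccl4 and Ccl3 are closely related inflammatory chemokines that draw T cells and monocytes, and Ccl3 binds Ccr1. Ccl4 was counted 835, 1099 and 1227 times in the control libraries and 707, 584 and 581 times with IL-33. Every IL-33 library was below every control library, and control replicate 1 was the nearest to them. The level was 49.8 ± 9.11 CPM in control cells and 29.0 ± 3.50 CPM with IL-33 (SD, n = 3 in each group), which is 1.72-fold lower, with a log2 fold change of -0.78 (SE 0.19, 95% interval from -1.29 to -0.28, adjusted p = 0.0443 in edgeR). The SD among control libraries was 18.3% of the mean, where counting alone gives 3.08%. The direction was kept with each library left out, with log2 fold changes from -0.93 to -0.69, but the call was not. The adjusted p in edgeR was 5.8e-26 without control replicate 1, 0.119 without control replicate 2, 0.0596 without control replicate 3, 0.0501 without IL-33 replicate 1, 0.15 without IL-33 replicate 2 and 0.133 without IL-33 replicate 3. Among the other tests it was 2.9e-04 in DESeq2 and 0.0588 in limma-voom. Itgax and the summed markers of mast cells and basophils and of natural killer cells were also lower in every IL-33 library than in every control library, while the summed dendritic and myeloid markers were lower with Itgax and higher without it, and the part of these genes in the lower Ccl4 and Xcl1 was not tested.

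Ccl3 was at 27.6, 36.3 and 36.8 CPM in the control libraries and at 32.6, 28.5 and 29.1 CPM with IL-33. The groups overlapped, and control replicate 1 was the lowest library of all. The level was 33.6 ± 5.19 CPM in control cells and 30.1 ± 2.24 CPM with IL-33 (SD, n = 3), with a log2 fold change of -0.16 (SE 0.087, 95% interval from -0.34 to 0.02, adjusted p = 0.193 in edgeR). The Ccl4 estimate of -0.78 lies outside that interval, but the Ccl4 interval, from -1.29 to -0.28, overlaps it. Without control replicate 1 the log2 fold change of Ccl3 was -0.28 and the adjusted p 0.00177, the single alternative under which it passed 0.05.

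The ratio of Ccl3 to Ccl4 counts, which does not depend on how libraries are scaled, was 0.701, 0.672 and 0.657 in the control libraries and 0.993, 1.02 and 1.11 with IL-33. The groups did not overlap, and the ratio in control replicate 1, where both genes were low, was close to that of the other control libraries. The log2 difference of the ratio was 0.62, and the two-sided exact permutation test gave p = 0.1, the smallest that 3 against 3 libraries allow, so this test cannot pass 0.05. The ratio of Ccl1 to Ccl3 was 0.508, 0.443 and 0.510 in control libraries and 0.464, 0.430 and 0.464 with IL-33, which overlap (exact permutation p = 0.3). The ratio of Xcl1 to Ccl4 was 0.0731, 0.0801 and 0.0571 in control libraries and 0.0410, 0.0325 and 0.0379 with IL-33, so Xcl1 was lower relative to Ccl4 in every IL-33 library than in every control library. These 3 ratios were picked after the values of all 21 pairs of tested members had been seen, and the adjusted p over the 21 was 0.15 for the first and last of them.

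**Figure D3:**
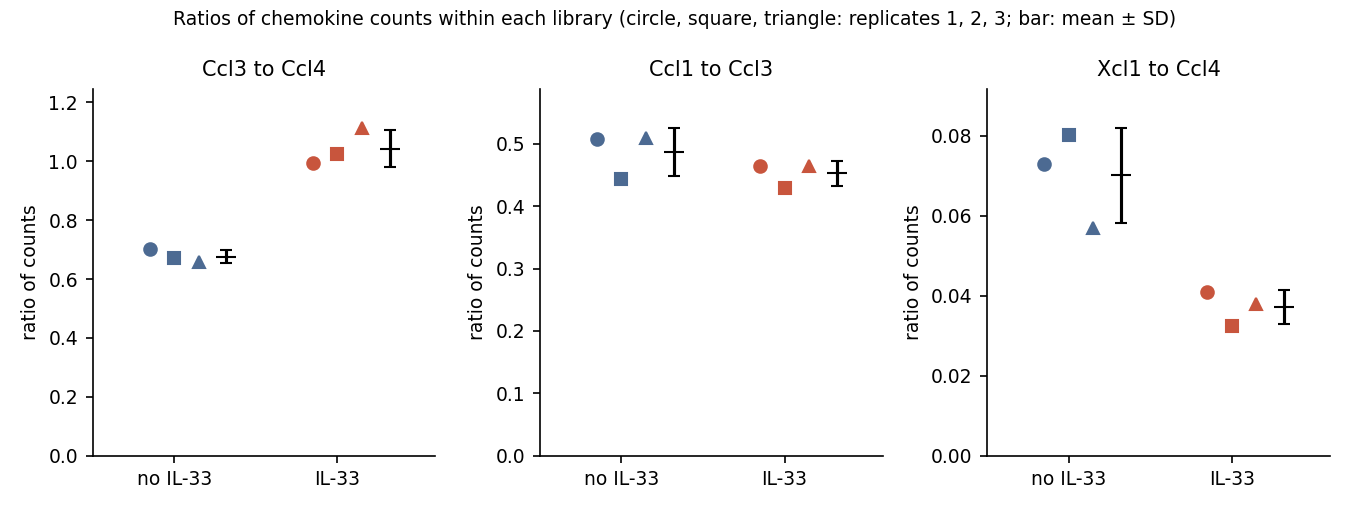
Ratio of the counts of 2 chemokine genes within each library, without IL-33 and with it, on linear axes from 0, with a black bar for the mean ± SD. The ratio of Ccl3 to Ccl4 is 0.657 to 0.701 in control libraries and 0.993 to 1.11 with IL-33, and the ratio of Ccl1 to Ccl3 overlaps between the groups.

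Ccl5, a ligand of Ccr1 and Ccr3 made by effector and memory T cells, was counted 1290, 1130 and 1214 times in the control libraries and 1332, 1240 and 1410 times with IL-33. Scaled to CPM the groups overlapped, and the level was 57.3 ± 3.05 CPM in control cells and 61.5 ± 2.19 CPM with IL-33 (SD, n = 3). The log2 fold change was 0.10 (SE 0.052, 95% interval from 0.00 to 0.21, adjusted p = 0.128 in edgeR), an interval that lies within a 1.5-fold change. Like Ccl9, it had its highest control level in replicate 1, where Ccl1, Ccl3, Ccl4 and Xcl1 had their lowest. Without that library the log2 fold change of Ccl5 was 0.15 and the adjusted p 0.04.

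Ccl1, the ligand of Ccr8, was counted 297, 327 and 411 times in the control libraries and 326, 257 and 300 times with IL-33. The groups overlapped, since IL-33 replicate 1 was above control replicate 1 on the CPM scale as well. The level was 16.3 ± 2.39 CPM in control cells and 13.6 ± 1.46 CPM with IL-33 (SD, n = 3), with a log2 fold change of -0.26 (SE 0.10, 95% interval from -0.46 to -0.05, adjusted p = 0.0583 in edgeR). It passed an adjusted p of 0.05 under 4 of 14 alternatives, with the lowest value of 0.0111 without control replicate 1, and never the fold change threshold.

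Ccl9, a ligand of Ccr1 known chiefly from myeloid cells and osteoclasts, was counted 63, 55 and 64 times in the control libraries and 94, 96 and 71 times with IL-33. It was the member with higher values in every IL-33 library than in every control library. The level was 2.86 ± 0.139 CPM in control cells and 4.05 ± 0.746 CPM with IL-33 (SD, n = 3), with a log2 fold change of 0.49 (SE 0.20, 95% interval from 0.10 to 0.89, adjusted p = 0.0508 in edgeR), which did not pass. The control SD was 4.86% of the mean, below the 12.8% that counting alone gives. Without IL-33 replicate 3, the lowest of its group, the log2 fold change was 0.64 and the adjusted p 0.018, past both thresholds.

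Ccl5, Ccl9, Ccl3 and Ccl4 lie within 139 kb of chromosome 11. Ccl1 is the other member on that chromosome, with 1220 kb between its annotated span, which covers 129 kb, and that of Ccl5. Ccl3 (ENSMUSG00000000982, from 83647844 to 83649355 on the minus strand) and Ccl4 (ENSMUSG00000018930, from 83662584 to 83664683 on the plus strand) start 13.2 kb apart and are read in opposite directions. Ccl6, a CC chemokine of myeloid cells between Ccl9 and Ccl3, was counted 42, 16 and 22 times in control libraries and 4, 14 and 3 times with IL-33. Its libraries did not overlap, and its log2 fold change was -1.93 (SE 0.47, adjusted p = 6.8e-04 in edgeR), opposite in sign to that of Ccl9, 9.25 kb away. The coding sequences of Ccl6 and Ccl9 were 70.8% identical over 342 aligned bases with a shared stretch of 25 bases. Whether any reads were split between these 2 genes was not tested, so both values are left uncertain. The flanking Heatr9 and Taf15 had log2 fold changes of -0.04 and -0.01 (adjusted p = 0.908 and 0.903 in edgeR).

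**Figure D4:**
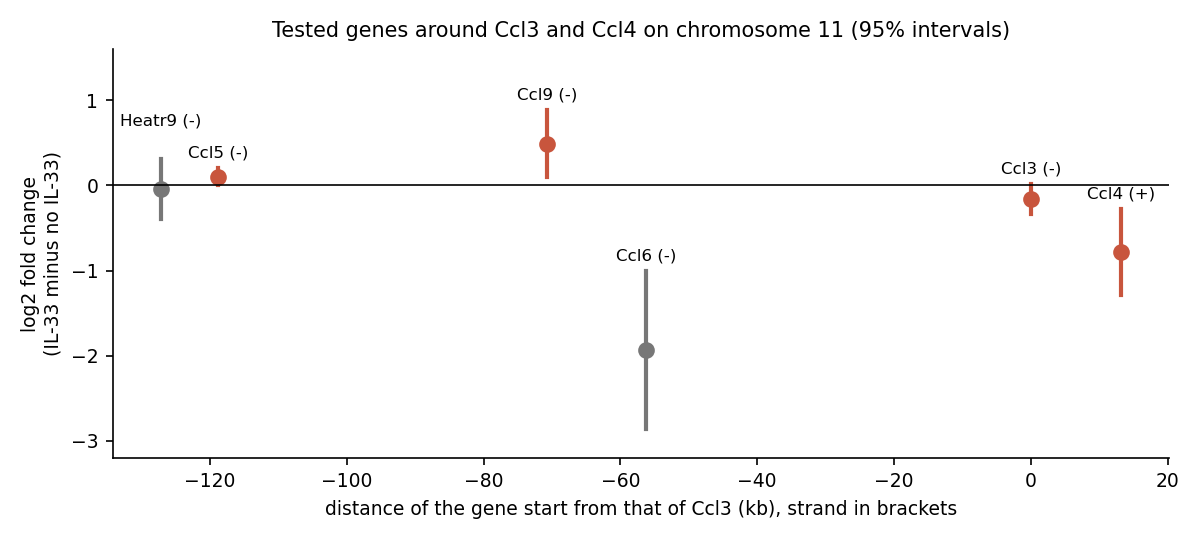
Log2 fold change with its 95% interval for the tested genes around Ccl3 and Ccl4 on chromosome 11, against the distance of each gene start from that of Ccl3 in kilobases, with members in red, other genes in grey and Taf15 not drawn. Along this stretch Ccl6 and Ccl4 are lower with IL-33, while the intervals of Heatr9 and Ccl3 include 0. The intervals of Ccl9 and Ccl5 lie above 0 but are not adjusted for the number of genes, and neither gene passed (adjusted p = 0.0508 and 0.128 in edgeR).

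The genes whose pattern over the 6 libraries was most like that of Ccl4 were Nr4a2, Ctsg and Egr2, among 8839 genes with a mean of at least 10 CPM. The measure was the root mean square difference of log2 CPM centred on the mean of each gene, which was 0.0919, 0.0927 and 0.102. Nr4a2, an orphan nuclear receptor induced by T cell receptor signalling, was at 38.2, 43.5 and 49.0 CPM in control libraries and at 27.9, 25 and 24.8 CPM with IL-33. Egr2, a zinc finger transcription factor of the same early response, was at 52.0, 64.8 and 63.7 CPM and at 38.2, 36.2 and 36.2 CPM. Ctsg, which encodes the granule protease cathepsin G, was at 12.5, 15.3 and 15.1 CPM and at 9.44, 8.58 and 8.19 CPM. In all 3, as in Ccl4, control replicate 1 was the lowest control library and IL-33 replicate 1 the highest IL-33 library. The 3 genes were picked for likeness over these same 6 libraries, so this shared order largely follows from the choice.

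The other chemokine ligands were mostly scarce. Of 32 further ligand genes, 19 were listed and 7 tested, of which 2 were called higher and 1 lower, with a median log2 fold change of 0.39 among the 7. Cxcl5, a ligand of the neutrophil receptor Cxcr2, was counted 7, 7 and 2 times in control libraries and 19, 16 and 19 times with IL-33, a log2 fold change of 1.70 (SE 0.51, adjusted p = 0.00691 in edgeR). Cxcl2, another ligand of that receptor, was counted 24, 4 and 10 times and 22, 20 and 57 times, which overlap between the groups, with a log2 fold change of 1.34 (SE 0.47, adjusted p = 0.0339 in edgeR). The lower gene was Ccl6. Each of these 3 had fewer than 20 counts in some library, and DESeq2 called Ccl6 alone. Without control replicate 3 edgeR also called Ccl6 alone, and Cxcl2 was lost without control replicate 2 and without IL-33 replicate 3. Cxcl3, the ligand of this list with the highest counts and named for that after its values were seen, had 328, 402 and 354 counts in control libraries and 521, 374 and 560 with IL-33, a log2 fold change of 0.39 (SE 0.11, adjusted p = 0.0118 in edgeR), below the fold change threshold.

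Receptors for the members were all tested, and none of the 8 passed both thresholds in edgeR, DESeq2 or limma-voom. In edgeR 4 had an unadjusted p under 0.05. The share of all genes at that cutoff was not counted and can be no lower than 27.5%, so no excess can be read from the 4. By the adjusted p alone 3 of the 8 passed, beside 27.5% of all genes tested. The median log2 fold change of the 8 was 0.03. The 2 receptors given here were picked after their values were seen. Ccr1, a receptor of Ccl3, Ccl5 and Ccl9, was at 15.7 ± 1.94 CPM in control cells and 19.2 ± 0.397 CPM with IL-33 (SD, n = 3; log2 fold change 0.28, adjusted p = 0.0158 in edgeR). Cxcr3, the receptor of Cxcl10, was at 8.72 ± 0.953 and 6.60 ± 0.927 CPM (log2 fold change -0.40, adjusted p = 0.02 in edgeR). By the adjusted p alone Ccr1 rose and Cxcr3 fell, each by less than 1.5-fold, and the groups did not overlap for either.

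Of 20 genes for signalling from chemokine receptors, all tested, 1 was called higher and 1 lower, with a median log2 fold change of 0.08. Pik3r5, a regulatory subunit of the phosphoinositide 3-kinase that acts below G proteins, was at 33.0 ± 1.17 CPM in control cells and 50.8 ± 2.80 CPM with IL-33 (SD, n = 3; log2 fold change 0.62, adjusted p = 3.4e-15 in edgeR). Grk3, a kinase that desensitises receptors coupled to G proteins, was at 4.18 ± 0.573 and 2.36 ± 0.531 CPM (log2 fold change -0.82, adjusted p = 0.00102 in edgeR). By the adjusted p alone 10 of the 20 were higher and 2 lower, beside 13.6% higher and 13.9% lower among all genes tested.

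Other products that activated T cells secrete moved in both directions. Of 22 such genes 18 were tested, and 5 were called higher and 2 lower, with a median log2 fold change of 0.13. The higher ones were Ifng, Il5, Il6, Il13 and Areg, of which Ifng, the type 1 cytokine, rose from 42.7 ± 4.03 to 83.2 ± 2.50 CPM (SD, n = 3; log2 fold change 0.96, adjusted p = 4.1e-29 in edgeR). Cxcl10, a gene known to respond to that cytokine, had the log2 fold change of -0.68 given above, which did not pass (adjusted p = 0.104 in edgeR). The lower ones were Tnf, from 18 ± 2.02 to 11.5 ± 1.28 CPM (log2 fold change -0.65, adjusted p = 2.0e-07 in edgeR), and Csf1, the growth factor of macrophages, from 66.0 ± 2.09 to 29.8 ± 1.21 CPM (log2 fold change -1.15, adjusted p = 4.5e-33 in edgeR).

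**Figure D5:**
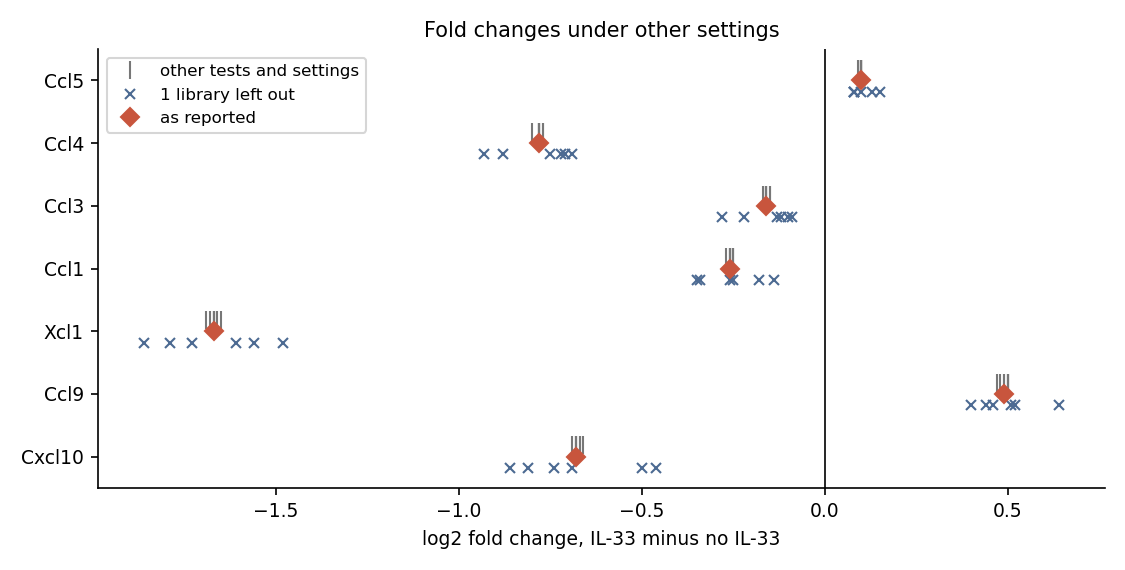
Log2 fold change (IL-33 minus no IL-33) of the 7 tested chemokine genes as reported (red diamonds), under other tests, scalings and filters (grey ticks) and with each library left out in turn (blue crosses). The sign of each gene was the same throughout, and Xcl1 stays between -1.86 and -1.48.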

How the data were processed

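RNA-seq libraries of 3 control and 3 IL-33 samples were grouped by their labels. The authors deposited a table of raw read counts per gene and library, without normalization, and 1 column of means over libraries that was not used. For the counting program, its use of strand and the annotation, nothing is stated in the sources used here. The submitters' processing notes name Bowtie 0.12.2 and mm8 without a role. The labels name a TruSeq kit and the methods of the study an NEBNext Ultra kit.

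Of 26128 listed identifiers, 26086 were matched to symbols in GENCODE M21 (GRCm38), the source of all gene coordinates and lengths. Genes were filtered with filterByExpr (minimum count 10, minimum total 15), which kept 14671 genes and removed 0.11% of counts. Counts were scaled by TMM (factors 0.993 to 1.01) and tested with edgeR 4.0.16 (R 4.3.3; robust glmQLFit and glmQLFTest, two-sided, no covariate), and p-values were adjusted after Benjamini and Hochberg over every tested gene. The thresholds, 0.05 on the adjusted p and 1.5 on the fold change, are those of the study. DESeq2 1.42.0, limma 3.58.1 (voom), other scalings and filters, a replicate block and each library left out were alternatives. Intervals of shares and limits on counts cover counting error only. Those of log2 fold changes come from the edgeR fit and include the spread between libraries.

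All members were named, with genes past both thresholds in the ligand, receptor, signalling and cytokine lists (at most 6 a list), tested genes within 30 kb of a member and the 3 genes most like each called member of at least 10 CPM. Some listed genes are not reported here. The members and lists were chosen with earlier results of these data known.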

Additional observations from a re-analysis of the deposited data

How the results depend on the processing

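Xcl1 was called lower under all 14 alternatives, and no tested member changed sign under any of them. The count of members called, 2 as reported, was 1 (Xcl1) in limma-voom, with the replicate block and in the test against the fold change threshold, and 1 to 2 with each library left out. Without IL-33 replicate 3 the 2 called were Xcl1 and Ccl9 in place of Ccl4. The correlation of the deviations of same-numbered libraries was 0.00595, -0.0121 and 0.0126 over 12960 genes, so no pairing was seen in the values. The labels do not say whether same-numbered libraries share a mouse or culture, and this check cannot exclude it. With the replicate block the adjusted p of Ccl4 was 0.138. The count of other ligands called, 3 as reported, was 1 in DESeq2, 0 with the stricter filter of 1 CPM, under which 3 of the 7 were tested and 1 had an unadjusted p under 0.05, 0 in edgeR's test against the fold change threshold, where 3 had an unadjusted p under 0.05, and 1 to 3 with each library left out. Over all genes tested, 714 passed both thresholds and 113 the test against the fold change threshold. The order of the members per length, by means over all 6 libraries, held in 8 of 8 places with the longest transcript and with the longest protein-coding transcript, the second chosen after seeing the data. In control cells alone it did not, since Ccl4, at 75.5 CPM per kilobase, was above Ccl5 (59.6) with all exons and below it with the longest transcript (85.7) and the longest protein-coding transcript (108), and Cxcl10 passed Ccl9 with the latter. Depth limits Ccl22, Cxcl10 and Xcl1.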

Other observations

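Of the 21 pairs of tested members, 14 had count ratios that did not overlap between control and IL-33 libraries. The share over pairs of other genes was not counted, so this number is not known to be particular to the members. The ratios did not overlap for 10 of the 11 pairs with Ccl4 or Xcl1 and for 4 of the 10 with neither, each with Ccl9 or Cxcl10. Ccl4, Xcl1, Ccl9 and Cxcl10 are the members whose own groups did not overlap, so this split restates those values. The exception among the pairs with Ccl4 or Xcl1 was the ratio of Cxcl10 to Ccl4. It was 0.0407, 0.0419 and 0.0253 in control libraries and 0.0339, 0.0291 and 0.0516 with IL-33 (log2 difference 0.08, exact permutation p = 0.9). The 21 ratios share genes and are not independent of each other, and the exact test of any pair can go no lower than p = 0.1 with 3 libraries against 3.

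Xcr1, the receptor of Xcl1 and best known as a marker of cross-presenting dendritic cells, was counted 223, 255 and 252 times in control libraries and 265, 282 and 256 times with IL-33. The level was 11.5 ± 1.02 CPM and 12.4 ± 0.969 CPM (SD, n = 3; log2 fold change 0.11, adjusted p = 0.521 in edgeR), with overlapping groups. It was picked after its values were seen.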
